A study of Danio rerio with 6 samples.

Results

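The proteasome is the barrel-shaped protease that degrades ubiquitin-tagged proteins. In adult zebrafish kidney marrow its genes were described here by name: a gene belonged if its symbol, case ignored, was psm followed by a letter from a to g and then a digit or the end of the name. This found 58 of the 31484 genes in the count tables, on 21 chromosomes and on unplaced contigs. Kidney marrow, where adult fish make their blood cells, had been taken at 3 to 5 months of age and dispersed through a 70 micron filter, and total RNA was sequenced. The 6 libraries were 3 biological replicates of tet2 wt/wt fish (called wild type here) and 3 of tet2 -/- fish (called tet2 mutant here). Tet2 is an enzyme that oxidises 5-methylcytosine in DNA. The labels do not describe the mutant allele or the sex of the fish, say how many fish made a library, or name any sorting of the cells.

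The core particle of the proteasome is a stack of rings. Its outer rings are built of alpha subunits (psma genes), which gate entry, and its inner rings of beta subunits (psmb genes). The catalytic beta subunits, at the positions called beta1, beta2 and beta5, carry the active sites. Regulatory caps bind the ends of the core. In the largest cap, ATPases (psmc genes) unfold the substrate and non-ATPase subunits (psmd genes) recognise and remove ubiquitin. In immune cells the catalytic subunits can be replaced by immune counterparts, a form called the immunoproteasome, which cuts peptides suited to display on class I histocompatibility molecules. In zebrafish several of these immune genes lie within the histocompatibility region of chromosome 19, beside class I genes. In mammals interferon gamma induces the immune subunits and the PA28 cap made from psme1 and psme2.

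By role the 58 genes comprised 10 of the alpha ring, 4 structural and 3 constitutive catalytic subunits of the beta ring, 6 immune subunits, 7 ATPases, 14 non-ATPase cap subunits, 6 assembly chaperones, 5 activators and 1 inhibitor. The other two, PSMC3IP and PSME3IP1, match the rule only by name. In mammals PSMC3IP is a partner of the meiotic recombinases and PSME3IP1 binds the activator PSME3, and neither is a subunit. The immune subunits were PSMB8, PSMB9, psmb12 and psmb13a on chromosome 19, PSMB10 on chromosome 4 and psmb11b on chromosome 23. Symbols are printed as the name table gives them, in the capitals of human genes for many. Its only other name that matched the rule, a PSMB11 gene, was not analysed here.

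Total counts ran from 41285460 to 49229143 per library, and the 58 genes took from 0.404% to 0.609% of them. Levels are counts divided by TMM-scaled library size (CPM). Where genes are compared with each other, levels also divided by gene length (TPM) are used. Libraries differed in other tissues. The summed level of 16 zona pellucida genes, which code for the egg envelope, was 8.61, 8.50 and 1056 CPM in wild type 1, 2 and 3 and 704, 443 and 4287 CPM in tet2 mutant 1, 2 and 3. Liver markers summed to 29.7, 471 and 78.1 CPM and to 14.7, 1566 and 58.5 CPM. They were highest in tet2 mutant 2, where most members were high. In wild type 1, the highest library for 47 of 58 members, they were the lowest of that genotype. The sum of skeletal muscle markers was 222, 249 and 184 CPM in wild type and 86.3, 38.1 and 69.7 CPM in mutants, without overlap, and 0 of 9 genes tested passed, with 8 at an unadjusted p under 0.05 by edgeR. Kidney tubule markers summed to 917, 1033 and 814 CPM and to 756, 839 and 708 CPM. By edgeR 1 of 7 genes passed as lower in the mutants, with 5 at an unadjusted p under 0.05. These 5 had log2 fold changes (mutant minus wild type) from -1.54 (SLC5A12) to -0.79 (CDH17), without overlap. The sum also holds 2 genes with the symbol SLC20A1, which were above 0 (0.21 and 0.42). Markers of blood cells were present in all libraries. Summed erythroid markers ran from 2478 to 4456 CPM. Neutrophil markers (2 of 6 listed genes were matched) ran from 8624 CPM in wild type 2 to 19193 CPM in wild type 1. Macrophage markers ran from 1591 to 2128 CPM and B cell markers from 307 to 414 CPM. T cell markers ran from 70.8 to 123 CPM. Thrombocyte markers had 193, 188 and 217 CPM in wild type and 180, 167 and 141 CPM in mutants, without overlap. The 6 names of that list matched 13 gene IDs, because F2R and THBS1 each stand on several. Of its other names, itga2b (0.10) and gp9 (0.12) had log2 fold changes above 0, and mpl (-0.28) and GP1BB (-0.26) below 0. The other blood cell sums overlapped. Of the blood cell genes tested 0 passed. At an unadjusted p under 0.05 by edgeR were 3 of 10 macrophage, 3 of 10 thrombocyte and 2 of 6 B cell genes. So were 1 of 6 erythroid, 1 of 6 T cell and 0 of 2 neutrophil genes, against 11.9% of all genes tested. The 3 macrophage genes all had the symbol MFAP4, which stands on several gene IDs. Log2 fold changes were below 0 in 5 of 6 erythroid, 5 of 6 T cell and 8 of 10 thrombocyte genes. They were below 0 in 6 of 10 macrophage, 1 of 2 neutrophil and 1 of 6 B cell genes. The part of these tissues and cell types in the results below was not tested, except that the egg level entered 1 alternative fit as a covariate.

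Every member was detected in every library, over a wide range of levels. Among all 58, PSMA8 ranked highest, with a mean of 316 TPM over the 6 libraries. The RefSeq gene table lists psma7, the name of the general alpha4 subunit, as its synonym. The other leading genes were PSMA1 of the alpha ring (291 TPM), PSMB1 of the beta ring (264 TPM), the activator PSME2 (258 TPM), PSMB4 (256 TPM) and the activator PSME1 (249 TPM). The immune catalytic subunits PSMB8 (203 TPM) and PSMB9 (186 TPM) ranked 8 and 10 in the list. Their constitutive counterparts PSMB5 (111 TPM) and PSMB6 (114 TPM) ranked 27 and 22. The lowest were PSME4 on chromosome 13 (2.81 TPM) and the thymus type subunit psmb11b (0.378 TPM).

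**Figure D1:**
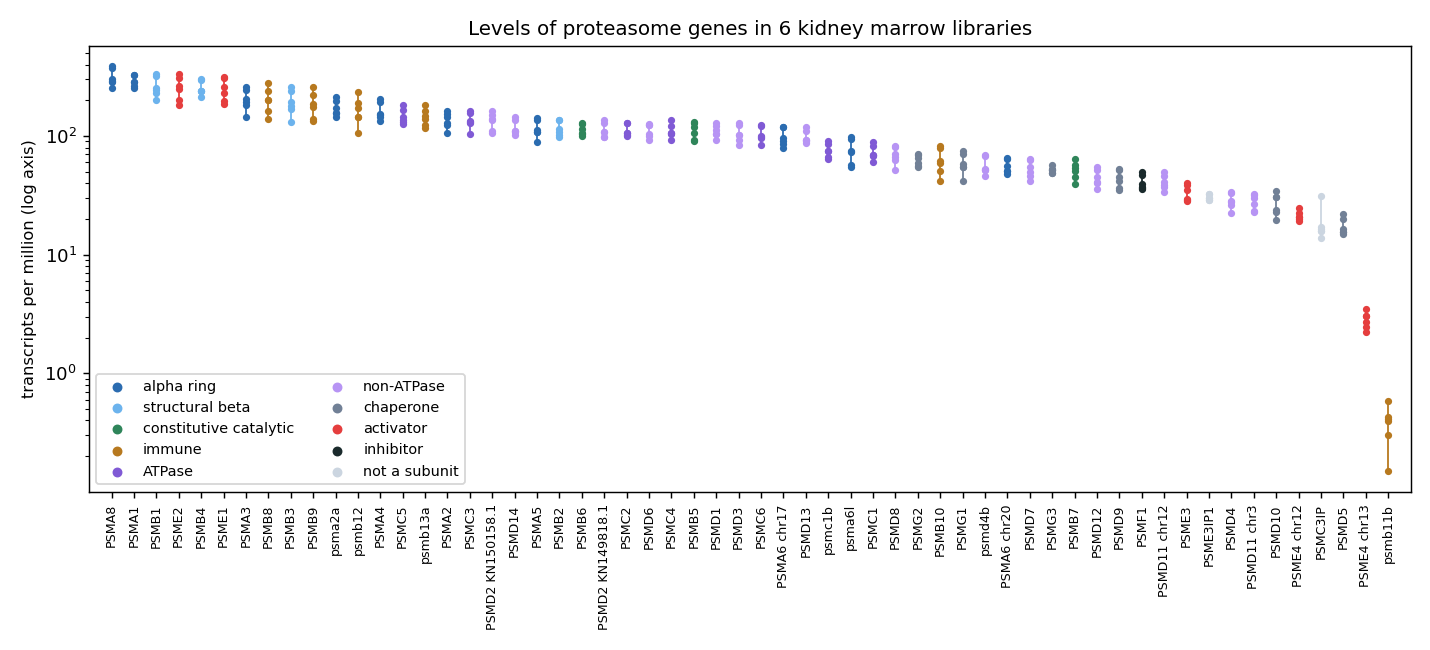
Level of each of the 58 proteasome genes in TPM (vertical log axis), ordered by mean. Each point is 1 library, each line spans the 6 libraries and colours mark the role. Immune subunits (ochre) other than psmb11b and PSMB10 stand in the upper part, between 146 and 203 TPM on average.

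Several subunits have more than 1 gene copy, and their shares were counted per length. Of the psma2 transcripts psma2a gave 58.0%, 58.0% and 58.1% in wild type 1, 2 and 3 and 55.0%, 54.8% and 52.0% in tet2 mutant 1, 2 and 3, and PSMA2 gave the rest. The mutants lay below the wild type libraries in this share, a difference noticed after its values were seen and not tested, and neither copy passed the test of the genotypes. Of the copies of the alpha subunit psma6, PSMA6 on chromosome 17 gave from 41.0% to 47.2%, psma6l from 28.1% to 35.1% and PSMA6 on chromosome 20 from 22.6% to 26.3%. The ATPase copies PSMC1 and psmc1b were near parity, with PSMC1 between 47.7% and 51.1%. For PSMD4, a ubiquitin receptor of the cap, psmd4b gave from 64.4% to 67.9%. PSMD4 shares 17.0% of its exon bases with a gene on the same strand and 32.0% with one on the opposite strand, so this split is uncertain. For PSME4, which codes for the PA200 activator, the chromosome 12 copy gave from 86.4% to 90.3%. PSMD11, a scaffold of the cap lid, had from 54.5% to 61.8% from its chromosome 12 copy. PSMD2, a base subunit of the cap, stands on 2 unplaced contigs with 1542 and 1044 exon bases, and whether these are parts of 1 gene was not tested.

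The comparison of the genotypes asks which proteasome transcripts differ with the loss of tet2. No member differed detectably. By edgeR's quasi-likelihood test with Benjamini-Hochberg adjustment over all 21893 genes tested, 0 of 58 members passed an adjusted p of 0.05, and their adjusted p ran from 0.461 to 0.998. Over all genes tested 66 passed (0.301%). At an unadjusted p under 0.05 there were 0 of 58 members, against 11.9% of all genes tested. In 0 of 58 members were the genotypes free of overlap, against 18.2% of all genes tested. DESeq2 called 0 members (4.13% of all genes), and so did the fit blocked on replicate number (2.14%) and the fit without wild type 3 and tet2 mutant 3 (1.43%). With DESeq2's size factors in edgeR (0.279% of all genes), without the filter on low counts (0.229%) and with the zona pellucida level as a covariate (0.242%) the members' count was 0 as well. In bulk tissue, fewer cells of a type and less RNA per cell cannot be told apart.

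The fitted differences were small, and most intervals lay within 2-fold. Of the members, 35 had a log2 fold change (mutant minus wild type) above 0 and 23 below, with a median of 0.02, equal to that of all genes tested (0.02). Above 0 were 11361 of all 21893 genes tested, and 6255 of the 11230 with a mean of at least 8 CPM. The 95% interval of the log2 fold change lay within 2-fold in both directions for 56 of 58 members (96.6%). The exceptions were psmb11b and PSMC3IP. Among all genes tested with a mean of at least 8 CPM, as 57 of the members had, the share was 82.4%. The median SE was nevertheless larger in the members (0.22) and in the immune subunits (0.32) than over those genes (0.17). Summed over all 58 genes, wild type 1, 2 and 3 had 6548, 4713 and 3860 CPM and tet2 mutant 1, 2 and 3 had 4946, 6015 and 4341 CPM. The means were 5040 ± 1374 (SD, n = 3) and 5101 ± 848 (SD, n = 3), a difference smaller than either SD.

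**Figure D2:**
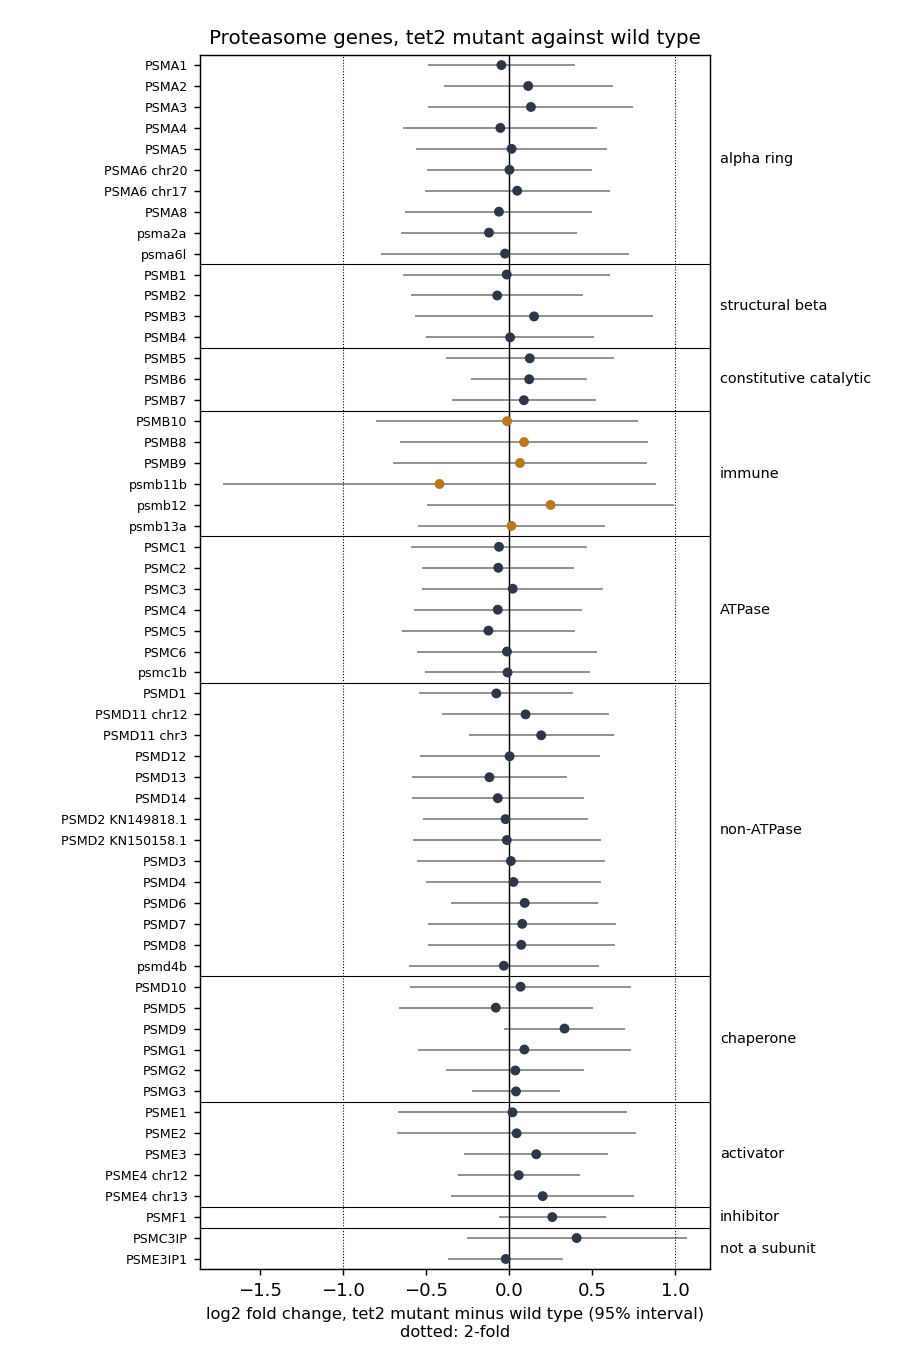
Log2 fold change of each member (horizontal axis, tet2 mutant minus wild type) with its 95% interval from edgeR's quasi-likelihood test, grouped by role. Immune subunits are in ochre, dotted lines mark 2-fold, and every interval contains 0.

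The immune subunits overlapped between genotypes as the others did. PSMB8 (ENSDARG00000001303, chromosome 19, 7186913 to 7225623, build GRCz10) codes for the immune beta5 subunit. It had 242, 182 and 121 CPM in wild type 1, 2 and 3 and 186, 255 and 138 CPM in tet2 mutant 1, 2 and 3. Tet2 mutant 2 was the highest library and wild type 3 the lowest, and the genotypes overlapped. The log2 fold change of 0.09 (SE 0.31, 95% interval -0.66 to 0.84) had a Benjamini-Hochberg adjusted p of 0.933 by edgeR.

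PSMB9 (ENSDARG00000000656, chromosome 19, 7201455 to 7203448), the immune beta1 subunit, had 160, 114 and 83.9 CPM in wild type and 122, 168 and 84.5 CPM in mutants. The pattern by library was that of PSMB8, and the log2 fold change was 0.07 (SE 0.32). The neighbouring psmb12 (ENSDARG00000031885, chromosome 19, 7196298 to 7200531), listed by RefSeq with the synonym beta1t, had 104, 71.1 and 49.6 CPM in wild type and 86.3, 114 and 66.3 CPM in mutants. Its log2 fold change, the highest among the immune subunits, was 0.25 (SE 0.31, 95% interval -0.50 to 0.99) and did not pass (edgeR, Benjamini-Hochberg adjusted p = 0.79).

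At the beta2 position, PSMB10 (ENSDARG00000043781, chromosome 4, 75630955 to 75641899) had 109, 71.3 and 47.6 CPM in wild type and 74.9, 94.8 and 56.7 CPM in mutants, and its log2 fold change was -0.01 (SE 0.33). The chromosome 19 gene psmb13a (ENSDARG00000001656, 7192854 to 7225660), with the RefSeq synonym beta2ta, had 152, 116 and 99.2 CPM and 126, 152 and 92.4 CPM, and its log2 fold change was 0.01 (SE 0.24). Both sets overlapped. Their mean levels per length were 62.6 TPM for PSMB10 and 146 TPM for psmb13a.

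The last immune gene, psmb11b (ENSDARG00000068086, chromosome 23, 1131193 to 1135305), belongs to the thymus type, which in mammals is made in the thymic cortex. It had 24, 14 and 11 counts in wild type and 17, 17 and 6 counts in mutants, few but above a floor of 3 counts in each library. The log2 fold change was -0.42 with a 95% interval of -1.72 to 0.88. The thymic epithelial regulator foxn1 was also low, between 0.0430 and 0.257 CPM.

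Exons of PSMB8 and psmb13a overlap in the annotation. They share 352 bases on the same strand, 21.7% of PSMB8 and 23.7% of psmb13a, and their exons overlap exons of the peptide transporter gene tap2a on the other strand by 300 and 258 bases. How reads in these bases were counted is not given in the sources used here, so the split between the 3 genes is uncertain. Another 11 members share exon bases with other genes. PSMD7 shares the most, 56.1% of its bases with pkd1l2b on the opposite strand.

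The constitutive catalytic subunits all had log2 fold changes slightly above 0, and 0 of 3 passed. PSMB5 (ENSDARG00000075445, chromosome 2, 38390944 to 38410247), the beta5 subunit, had 105, 66.6 and 65.8 CPM in wild type and 79.7, 96.5 and 82.2 CPM in mutants (log2 fold change 0.12, SE 0.21). PSMB6 (ENSDARG00000002240, chromosome 23, 44720406 to 44729632), the beta1 subunit, had 90.7, 73.0 and 68.4 CPM and 77.4, 91.1 and 84.0 CPM (0.12, SE 0.15). PSMB7 (ENSDARG00000037962, chromosome 21, 8249235 to 8259556), the beta2 subunit, had 39.3, 27.4 and 38.0 CPM and 31.9, 37.7 and 41.7 CPM (0.09, SE 0.18). In PSMB7 the library order differed from that of most members, with tet2 mutant 3 highest and wild type 2 lowest.

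Counts per kilobase were used to ask how much of each catalytic position the immune genes supplied. Immune genes formed the majority of transcripts at every position in every library. At beta1 (PSMB9 and psmb12 against PSMB6) the immune share was 78.1%, 75.7% and 70.4% in wild type 1, 2 and 3 and 76.9%, 79.3% and 69.1% in the mutants. At beta2 (PSMB10 and psmb13a against PSMB7) it was 83.0%, 83.5% and 74.4% and 82.4%, 82.9% and 72.6%. At beta5 (PSMB8 and psmb11b against PSMB5) it was 65.1%, 68.9% and 59.7% and 65.4%, 68.1% and 57.6%. At each position the lowest library of each genotype was number 3, and the genotypes overlapped. At beta2 the majority in the libraries numbered 3 rested on psmb13a, whose split of reads is uncertain. PSMB10 alone was below PSMB7 there, at 41.6 against 56.9 TPM in wild type 3 and 50.6 against 63.7 TPM in tet2 mutant 3. In the other libraries PSMB10 alone was above PSMB7. At beta5 the majority rested on PSMB8 in every library, and its split of reads is uncertain as well. PSMB8 stood closest to PSMB5 in tet2 mutant 3, at 162 against 119 TPM.

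Over the 9 genes together the immune share was 75.3%, 75.6% and 68.4% in wild type and 74.8%, 76.7% and 66.5% in mutants. The libraries numbered 3 held the most zona pellucida transcripts of their genotype (1056 and 4287 CPM), and their part in the share was not tested. Without any length scaling the mean share in wild type moved from 74.8% to 70.8% at beta1 and from 64.6% to 69.3% at beta5. If the exon bases shared with other genes are left out of the lengths, a choice made after seeing the data, the share over the 9 genes ran from 68.7% to 78.4%, against 66.5% to 76.7%. Counts were left unchanged and PSMB8 and psmb13a lost the most bases, so the rise was set by the lengths. It does not show how reads in the shared bases were assigned.

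**Figure D3:**
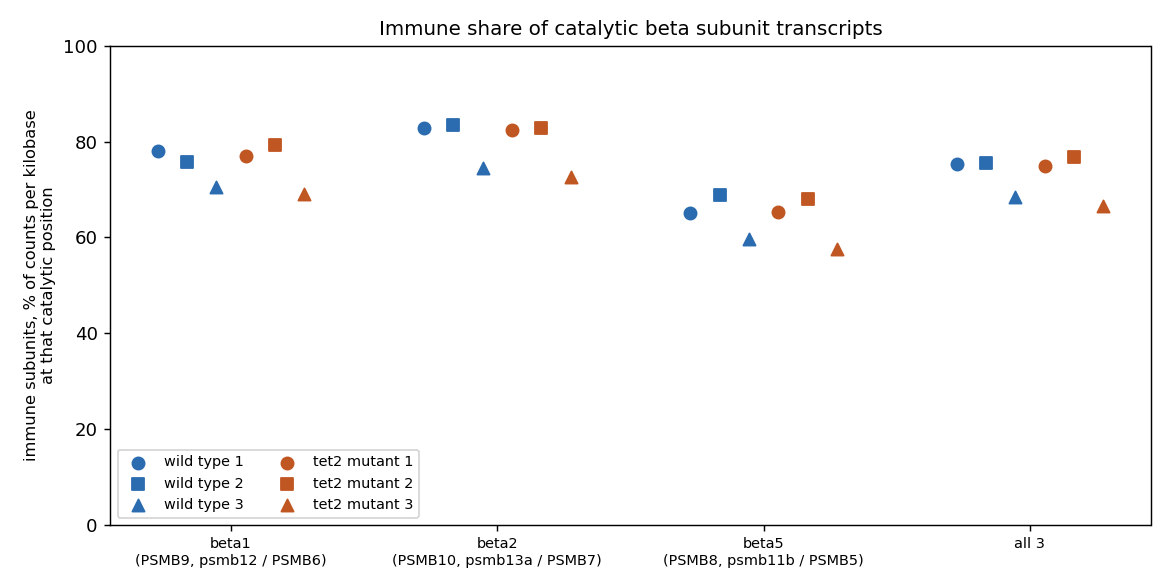
Immune genes as a percent of counts per kilobase at each catalytic position and over all 3 (vertical axis from 0 to 100), with 1 point per library, blue for wild type and orange for tet2 mutant. Triangles, the libraries numbered 3, lie below the other libraries at every position, between 57.6% and 74.4%, and colours overlap.

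Among the activators, which open the gate of the core, 5 of 5 had log2 fold changes above 0 and 0 passed. PSME1 and PSME2, the PA28 subunits, ranked 6 and 4 among the members in level per length. PSME2 had 331, 240 and 168 CPM in wild type 1, 2 and 3 and 261, 321 and 181 CPM in tet2 mutant 1, 2 and 3 (log2 fold change 0.05, SE 0.30). It shares 24.2% of its exon bases with LSM5 on the other strand. PSME1 had 225, 151 and 118 CPM and 176, 206 and 121 CPM (0.02, SE 0.29). Both genes were lowest in the libraries numbered 3 of their genotype, as the immune subunits were. The same held for the sum over all 58 members (3860 and 4341 CPM). It held too for the summed alpha ring (833 and 949 CPM), structural beta, ATPase and non-ATPase genes. It did not hold in both genotypes for the summed constitutive catalytic genes or the inhibitor.

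PSME3, the nuclear relative of the PA28 subunits, showed another order, with 47.9, 34.9 and 34.6 CPM in wild type and 37.0, 49.8 and 44.7 CPM in mutants (log2 fold change 0.16, SE 0.18). PSME4 on chromosome 12 had 95.9, 85.9 and 79.0 CPM and 94.3, 102 and 75.1 CPM (0.06, SE 0.15). Its copy on chromosome 13 had 13.2, 8.72 and 9.17 CPM and 14.0, 11.9 and 9.88 CPM (0.20, SE 0.23). The inhibitor gene PSMF1 (PI31) had 30.0, 26.5 and 24.7 CPM in wild type and 29.4, 35.9 and 32.0 CPM in mutants. Tet2 mutant 1 lay just inside the wild type range, and the log2 fold change of 0.26 (SE 0.13, 95% interval -0.06 to 0.58) did not pass (edgeR, Benjamini-Hochberg adjusted p = 0.512).

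Catalytic subunits were also set against the rest of the core, as a description without a test. The mean over the 14 alpha ring and structural beta genes was 210, 166 and 140 TPM in wild type 1, 2 and 3 and 166, 211 and 162 TPM in the mutants. Divided by this mean, PSMB8 stood at 1.14, 1.21 and 0.991 in wild type and at 1.20, 1.33 and 0.996 in mutants. PSMB7 stood at 0.241, 0.237 and 0.408 and at 0.270, 0.256 and 0.392, so it was highest in the libraries numbered 3. PSMB6 ran from 0.549 in wild type 1 to 0.777 in tet2 mutant 3, and it too was highest in the library numbered 3 of each genotype.

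In the alpha ring, 5 of 10 members were above 0 and 0 passed. PSMA3 had the largest log2 fold change (0.13, SE 0.26), with 193, 130 and 99.8 CPM in wild type and 141, 184 and 138 CPM in mutants. The lowest belonged to psma2a (-0.12, SE 0.22), with 118, 85.9 and 69.8 CPM and 80.4, 98.1 and 73.2 CPM. Of the structural beta subunits 2 of 4 were above 0, from PSMB3 (0.15, SE 0.30), with 134, 86.2 and 63.5 CPM and 99.5, 131 and 85.0 CPM, down to PSMB2 (-0.07, SE 0.22), with 141, 105 and 87.2 CPM and 102, 126 and 89.0 CPM. In all 4 named genes wild type 1 was the highest library and wild type 3 the lowest.

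Of the ATPases, 1 of 7 was above 0 and 0 passed, from PSMC3 (log2 fold change 0.02, SE 0.23), with 188, 135 and 104 CPM in wild type and 140, 163 and 130 CPM in mutants, to PSMC5 (-0.12, SE 0.22), with 176, 126 and 105 CPM and 121, 144 and 108 CPM. Of the non-ATPase subunits 8 of 14 were above 0 and 0 passed. Their largest log2 fold change was in PSMD11 on chromosome 3 (0.19, SE 0.18), with 78.1, 53.9 and 52.9 CPM and 64.3, 76.1 and 71.0 CPM. Their lowest was in PSMD13, a lid subunit (-0.12, SE 0.19), with 111, 77.2 and 73.7 CPM and 74.7, 92.4 and 73.9 CPM. For all 7 ATPases and all 14 non-ATPase subunits the highest library was wild type 1.

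Among the assembly chaperones 5 of 6 were above 0 and 0 passed. PSMD9 (ENSDARG00000006300), which helps to build the ATPase ring, had the smallest p of all members. It had 24.8, 18.7 and 18.8 CPM in wild type and 24.6, 27.4 and 26.5 CPM in mutants, so only tet2 mutant 1 lay inside the wild type range. The log2 fold change of 0.33 (SE 0.15, 95% interval -0.03 to 0.70) had an unadjusted p of 0.0676 and a Benjamini-Hochberg adjusted p of 0.461 by edgeR. The lowest was PSMD5 (-0.08, SE 0.24), with 29.3, 18.5 and 16.9 CPM and 20.1, 23.7 and 17.5 CPM. PSMG3, a chaperone of the alpha ring, had the smallest fold of all members between its highest and lowest library.

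Of the genes that match by name alone, 0 of 2 passed. PSMC3IP had 9.49, 7.50 and 8.55 CPM in wild type and 9.39, 8.48 and 16.0 CPM in mutants. Tet2 mutant 3, the library with the most zona pellucida transcripts, stood apart from the other libraries, and the log2 fold change was 0.41 (SE 0.28) with all libraries and 0.06 without that library. With the zona pellucida level as a covariate, which is confounded in part with genotype, the log2 fold change of PSMC3IP stayed above 0 and did not pass. The part of egg RNA in this value was not tested otherwise. PSME3IP1 had 28.7, 23.1 and 22.2 CPM and 24.5, 25.9 and 22.6 CPM (-0.02, SE 0.14).

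Variation between libraries was shared by almost the whole set. Wild type 1 was the highest library for 47 of 58 members (81.0%), against 25.2% of the genes tested with a mean of at least 8 CPM. Wild type 3 was the lowest for 48 of 58 members (82.8%), against 22.8% of those genes. Wild type 1 and tet2 mutant 2 were the highest pair of libraries for 52 of 58 members (89.7%), against 15.5% of those genes. The fold between the highest and the lowest library had a median of 1.68 over the members other than immune subunits and of 2.21 over the 6 immune ones, against 1.52 over those genes. These libraries and this pair were picked from the members' own values, so high shares among the members were built in. No test was made of these shares, since members of a complex are not independent.

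Summed by role, the range within a genotype exceeded the difference between genotypes in every role. Immune subunits had 768, 555 and 401 CPM in wild type and 596, 785 and 438 CPM in mutants, a 1.91-fold range within wild type and a 1.06-fold ratio of mutant to wild type means. Alpha ring genes had 1450, 1024 and 833 CPM and 1047, 1290 and 949 CPM, a 1.74-fold range within wild type and a 0.994-fold ratio of means.

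**Figure D4:**
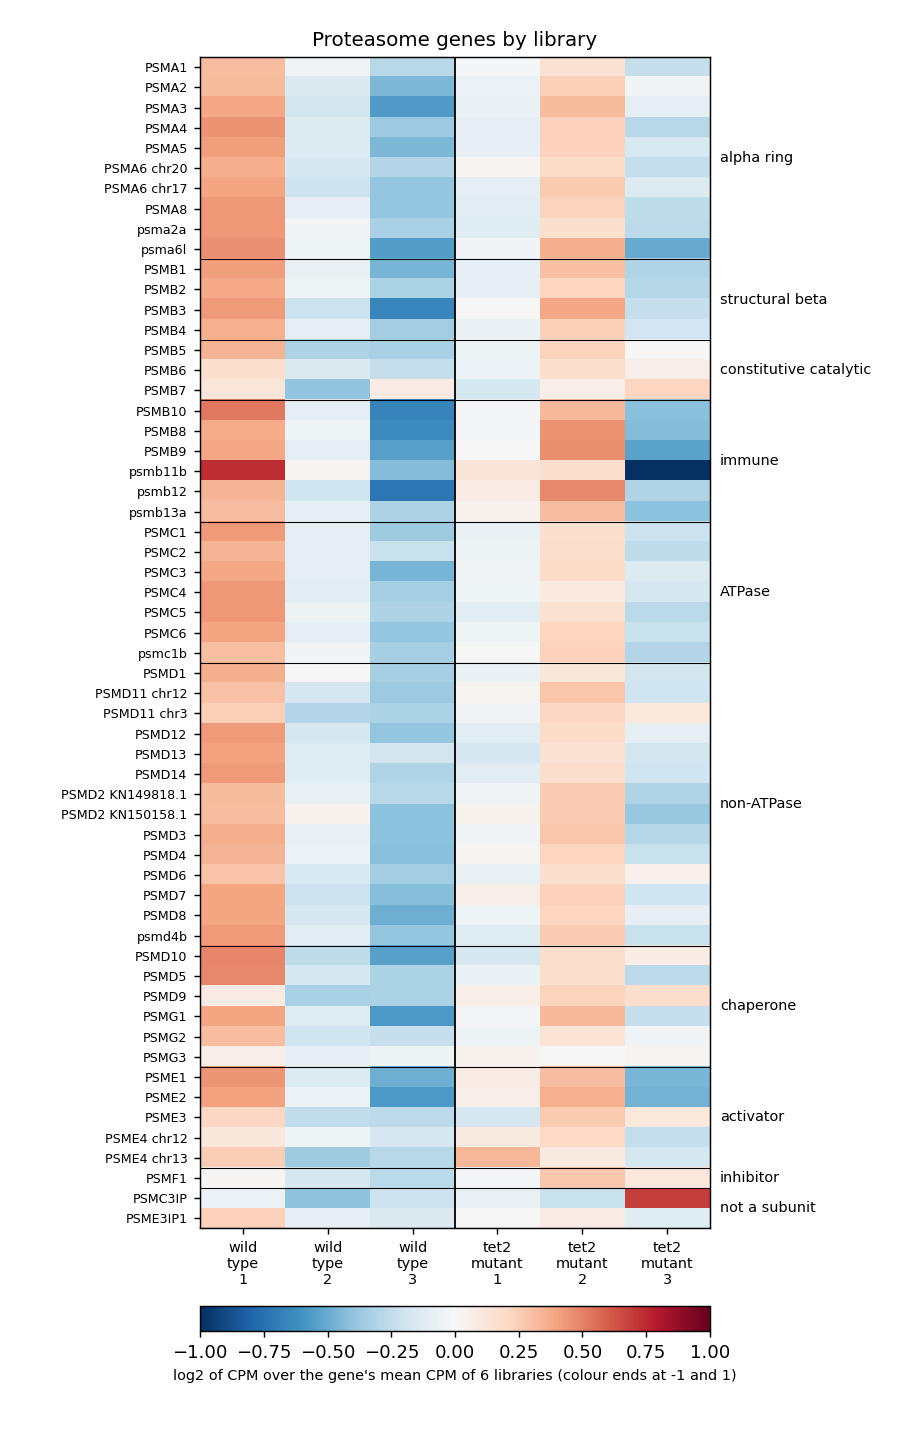
Level of each member in each library as log2 of CPM over the gene's mean of 6 libraries (colour), with members in rows grouped by role and libraries in columns. Wild type 1 and tet2 mutant 2 are red and wild type 3 is blue for most rows; PSMB7, PSMG3 and PSMC3IP are among the exceptions.

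The direction of the whole set depended on single libraries. The members' count past the adjusted threshold was 0 each time, while the share of all genes past it was 0.0265%, 0.0133% and 0.0671% without wild type 1, 2 and 3 and 0.00883%, 0.00888% and 0.0492% without tet2 mutant 1, 2 and 3. Without wild type 1, 57 of 58 members were above 0 (median log2 fold change 0.22), 3 had an unadjusted p under 0.05 and the lowest Benjamini-Hochberg adjusted p by edgeR was 0.228. Without wild type 3, 11 of 58 were above 0 (median -0.15). Without tet2 mutant 2, 13 of 58 were above 0 (median -0.12). When 1 library was left out, the median over all genes tested ran from -0.01 to 0.03. With the zona pellucida level as a covariate 57 of 58 were above 0 (median 0.39) and 10 had an unadjusted p under 0.05, but 0 passed, and the lowest Benjamini-Hochberg adjusted p by edgeR was 0.285. That level was 8.61 and 8.50 CPM in wild type 1 and 2 and at least 443 CPM in every other library. It is thus confounded in part with genotype, and this fit cannot fully separate them. The shares of all genes above 0 or at an unadjusted p under 0.05 were not computed for these alternative fits. The members' counts at those limits thus have no background here.

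In the neighbourhood of the immune genes a class I gene was lower in the mutants; its difference from the immune genes was not tested. Within 100 kb of the chromosome 19 immune genes the annotation holds 15 genes, of which 14 were tested and 1 passed. Over all genes tested 0.301% passed. That gene was mhc1uba (ENSDARG00000075963, chromosome 19, 7153929 to 7182175), which codes for a class I histocompatibility chain and ends 4.74 kb from PSMB8. It had 18.6, 13.3 and 17.9 CPM in wild type and 4.46, 4.55 and 2.89 CPM in mutants. It fell by 2.06 on the log2 scale (SE 0.25), with a Benjamini-Hochberg adjusted p of 0.0430 by edgeR. Leaving out any 1 library kept it between -2.20 and -1.89, with Benjamini-Hochberg adjusted p by edgeR from 0.0750 to 0.198, so it missed the threshold each time. Skeletal muscle markers were also lower in every mutant library, and 5 of 7 kidney tubule genes were lower in the mutants as well. The muscle sum was 222, 249 and 184 CPM in wild type 1, 2 and 3 and 86.3, 38.1 and 69.7 CPM in tet2 mutant 1, 2 and 3. Its library order differed from that of mhc1uba in both genotypes. The kidney tubule sum was 917, 1033 and 814 CPM and 756, 839 and 708 CPM. Its library order was that of mhc1uba among the mutants and differed from it in wild type. The part of these tissues in the result was not tested. With the zona pellucida covariate the log2 fold change of mhc1uba was -2.02, with a Benjamini-Hochberg adjusted p of 0.0836 by edgeR.

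Farther along, mhc1uca, another class I gene, had 88.0, 69.3 and 81.1 CPM in wild type and 36.9, 52.7 and 35.8 CPM in mutants, without overlap, but did not pass (log2 fold change -0.93, SE 0.19; edgeR, Benjamini-Hochberg adjusted p = 0.118). On the other side of PSMB9 lies tap2a, which moves peptides into the endoplasmic reticulum. It had 159, 111 and 103 CPM and 131, 148 and 84.5 CPM (-0.04, SE 0.26), with the library order of psmb13a. These genes share 258 exon bases on opposite strands, and how reads there were counted is not given. BRD2, a chromatin reader, had 134, 124 and 129 CPM and 153, 144 and 163 CPM (0.24, SE 0.11), without overlap and without passing. DAXX and tapbp.1, also within this window, were likewise without overlap and did not pass. Among all genes tested 18.2% were free of overlap.

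**Figure D5:**
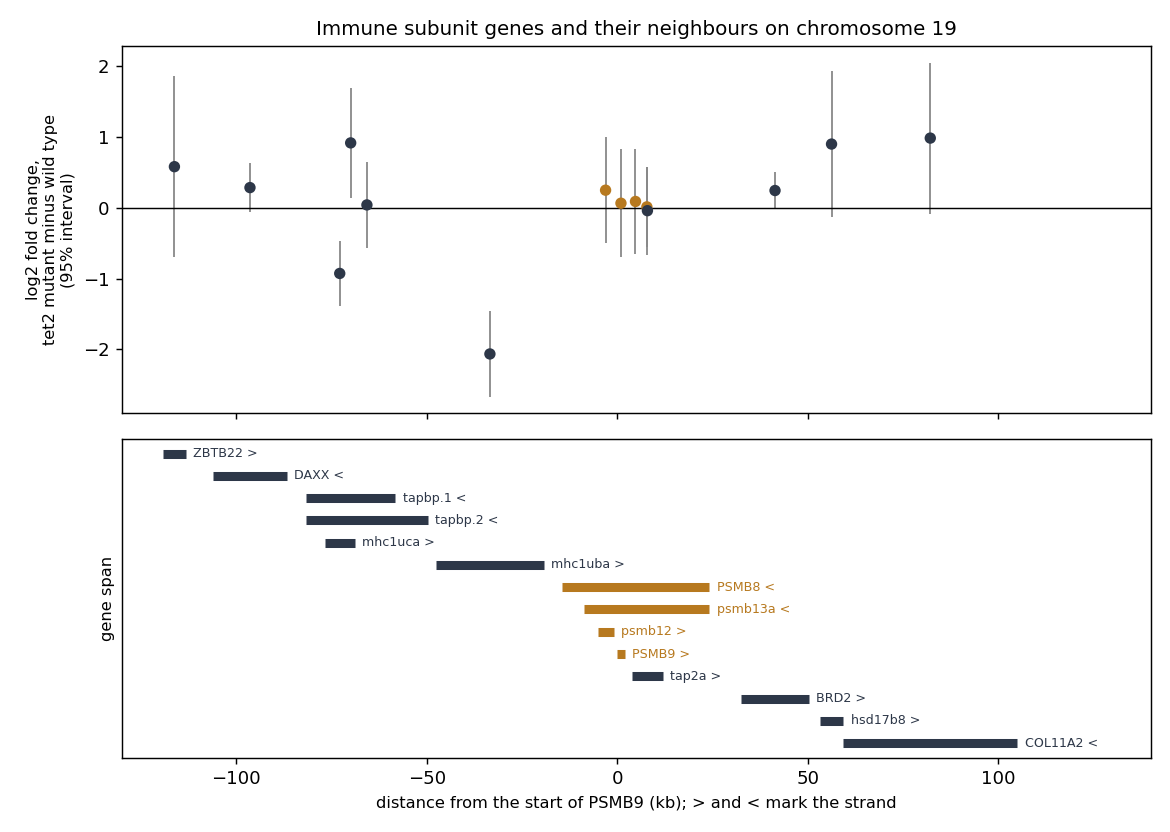
Upper panel, log2 fold change (tet2 mutant minus wild type, 95% interval from edgeR) of the 14 genes tested around the immune subunits on chromosome 19, at the midpoint of each gene in kb from the start of PSMB9. Lower panel, the span of each gene, with immune subunits in ochre; mhc1uba, at -2.06, lies beside PSMB8, at 0.09.

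Of the partners of the proteasome outside the name rule, 25 genes were matched and tested and 0 passed in either direction, with 18 above 0 and a median log2 fold change of 0.06. They include POMP, which guides assembly of the core, with 94.3, 62.7 and 49.8 CPM in wild type and 66.3, 80.9 and 60.7 CPM in mutants. For NFE2L1, which activates proteasome genes when the protease is inhibited, nfe2l1b had 37.8, 33.7 and 33.1 CPM and 34.8, 32.6 and 27.9 CPM. Wild type 1 was highest for both, and the lowest library was wild type 3 for POMP and tet2 mutant 3 for nfe2l1b.

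Of the genes of class I antigen processing, 30 were tested, 1 was lower (mhc1uba) and 0 were higher, with 22 above 0 and a median of 0.10. TAP1, the partner of tap2a, had 60.6, 41.2 and 26.3 CPM in wild type and 69.9, 74.7 and 33.7 CPM in mutants (0.48, SE 0.39). The class I light chain gene b2m had 1715, 1394 and 1244 CPM and 1569, 1539 and 1166 CPM (-0.03, SE 0.17). The class I activator nlrc5 had 94.0, 75.8 and 63.0 CPM and 91.0, 110 and 62.6 CPM (0.18, SE 0.24). In TAP1, b2m and nlrc5 the libraries numbered 3 were the lowest of their genotype. In other genes of the list this did not hold in both genotypes. The chaperone gene calr3a had 409, 224 and 215 CPM in wild type and 328, 369 and 408 CPM in mutants. Wild type 3 was the lowest of its genotype there, and tet2 mutant 3 was the highest of its genotype.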

How the data were processed

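The authors deposited unnormalized read counts for each Ensembl gene in a table per library, beside exon positions and gene lengths. Per the submitters' processing notes, Trimmomatic 0.36 and STAR 2.5.2b and the build GRCz10 were used; the sources used here give neither the counting tool nor its strand setting. Of the 31484 gene IDs, 25752 (81.8%) found a symbol in the name table. Genes were filtered with filterByExpr and compared in R 4.3.3 with edgeR 4.0.16 (TMM, quasi-likelihood F test, two-sided, Benjamini-Hochberg adjustment over the 21893 genes tested, threshold 0.05); each standard error is the fold change over the root of its F. DESeq2 1.42.0 was an alternative. TPM were computed from the deposited counts and lengths. The fits were also run on simulated counts, drawn independently for each gene and library. These held no pairing and no variation shared between genes, so that run does not cover such features of the real libraries. P-values measure the spread between libraries said to be biological replicates, and floors cover counting error only.

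Named members were all immune, constitutive catalytic, activator, inhibitor and name-only genes, the extremes of each other role, and the 5 members with the smallest p. Members, lists and tests were chosen with earlier results of these data known. Nearby genes other than mhc1uba, and partner genes, were chosen after their values were seen. Replicate numbers are shared between genotypes without explanation in the labels. On log2(CPM + 0.5), deviations from each genotype's mean over 17534 genes with a mean of at least 1 CPM, had r = 0.423, 0.586 and 0.708 in same-numbered libraries and from -0.531 to 0.166 in others. Deviations from a genotype's mean cancel out within it, so these values of r depend on each other. The pairing by number is thus only read from the data and is not established by them. Over the 58 members alone it did not hold for number 1: r was 0.0556, 0.569 and 0.702 in same-numbered libraries, against 0.649 for wild type 1 with tet2 mutant 2 and 0.395 for wild type 2 with tet2 mutant 1. Replicates were not copies (chi-square per degree of freedom from 56.4 to 167). No sequences were used here.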

Additional observations from a re-analysis of the deposited data

How the results depend on the processing

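The count of members passing stayed at 0 in each direction in all 12 alternatives of the genotype fit. The count of all genes passing was 66; it was 999 with DESeq2, 468 with the replicate block, 312 without wild type 3 and tet2 mutant 3, and from 2 to 15 when 1 library was left out. The block follows the replicate numbers, a pairing that the data do not establish. It changed no call of a member, though the log2 fold change of PSMB10 became 0.0404. With the zona pellucida covariate, which is confounded in part with genotype, the median log2 fold change was 0.68 for immune subunits and 0.37 for the other members. That covariate also turned the log2 fold change of PSMC5 (0.26), psma2a (0.28), PSMD5 (0.30), PSMB7 (-0.0689), PSMB10 (0.69), psmb11b (0.39), PSMD13 (0.14), PSME3IP1 (0.15) and PSMB2 (0.31). Without both libraries numbered 3 it turned PSMC3 (-0.10) and PSMA3 (-0.0031). Of 27 named members, 18 changed sign in at least 1 alternative, always without passing; the cause was not tested.

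When 1 library was left out, the log2 fold change ran from -0.0727 to 0.41 for PSMA3, from -0.27 to 0.32 for PSMB10, from -0.23 to 0.12 for PSMB2, from -0.0774 to 0.47 for PSMB3 and from -0.0596 to 0.19 for PSMB7. It ran from -0.16 to 0.33 for PSMB8, from -0.21 to 0.31 for PSMB9, from -0.16 to 0.19 for psmb13a, from -0.17 to 0.26 for PSMC3 and from -0.29 to 0.0927 for PSMC5. It ran from -0.23 to 0.0773 for PSMD13, from -0.24 to 0.19 for PSMD5, from -0.18 to 0.29 for PSME1, from -0.18 to 0.30 for PSME2 and from -0.10 to 0.0895 for PSME3IP1. It ran from -0.0356 to 0.16 for PSME4 on chromosome 12 and from -0.29 to 0.0921 for psma2a. Without length scaling the immune share in wild type was 70.8% at beta1 and 69.3% at beta5. Depth was no limit for the members other than psmb11b, which had at most 24 counts in a library; the spread between libraries set the intervals.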

Other observations

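Some genes around the proteasome, picked after their values were seen, had genotypes that did not overlap although none passed the threshold. A polyubiquitin gene, ubb (ENSDARG00000093313), had 102, 86.4 and 108 CPM in wild type 1, 2 and 3 and 64.6, 73.5 and 56.1 CPM in tet2 mutant 1, 2 and 3 (log2 fold change -0.61, SE 0.15; edgeR, Benjamini-Hochberg adjusted p = 0.175). The gene rps27a, which codes for ubiquitin fused to a ribosomal protein, had 1984, 1677 and 1580 CPM against 1540, 1517 and 1327 CPM (log2 fold change -0.26, SE 0.13; edgeR, Benjamini-Hochberg adjusted p = 0.496). The other polyubiquitin gene with that symbol, UBB (ENSDARG00000002369), had 238, 220 and 232 CPM against 245, 266 and 246 CPM. A tapasin gene, tapbp.1, which loads peptides on class I molecules, had 11.2, 10.3 and 4.93 CPM against 16.7, 19.3 and 14.0 CPM (log2 fold change 0.92, SE 0.32; edgeR, Benjamini-Hochberg adjusted p = 0.342). Its annotated span overlaps that of tapbp.2, so the split of reads between them is uncertain. The interferon signal gene stat2 had 202, 228 and 199 CPM against 287, 255 and 271 CPM (log2 fold change 0.37, SE 0.11; edgeR, Benjamini-Hochberg adjusted p = 0.269). Over all genes tested 18.2% were free of overlap between the genotypes.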
